A study of Mus musculus with 6 samples.

Results

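The genes described here are the mouse Zfp genes whose number is 600 or above, a block of the zinc finger gene family. They were chosen by symbol: every probe other than a control spot whose accession maps to a RefSeq mouse gene named Zfp and a number from 600 upward was taken. The RefSeq table held 173 such genes, of which 171 were protein coding, and 155 of them had a probe, among 23462 genes with a probe in all. Of these 155, 144 could be tested, among 17063 genes tested on the arrays, and of the other 11, 10 were too dim and Zfp987 lacked a value on 1 array of each group. The family itself was selected on earlier results of the same comparison of arrays, so its counts and medians are descriptions and were not tested.

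Most Zfp genes encode proteins with a row of C2H2 zinc fingers, small loops held by a zinc ion that read DNA letters, and many of them carry a KRAB domain at the other end. The KRAB domain recruits Trim28, a scaffold that brings the histone methyltransferase Setdb1 and other silencing proteins, and the best known targets are endogenous retroviruses and other transposable elements. The genes arose largely by tandem duplication and sit in clusters of close copies on a few chromosomes.

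The arrays measured total RNA of BV2 cells, an immortalized mouse microglial line, on 6 Agilent mouse gene expression arrays, 3 labelled with and 3 labelled without PGC-1α overexpression. PGC-1α is a transcriptional coactivator of mitochondrial and metabolic genes, and both groups had been given LPS, the bacterial membrane component that activates microglia. The culture methods of the study give 500 ng/ml LPS for 6 h and a lentivirus with the PGC-1α coding sequence behind a ubiquitin promoter, selected with puromycin. The methods also name a negative control lentivirus. They do not name the arrays, however, and the labels do not say whether the control cells carried that control virus. Whether the 3 arrays of a group came from separate cultures is not stated, so p-values measure the spread between these samples, which may be technical.

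The mRNA of Ppargc1a, the gene of PGC-1α, gave no firm check of the labels. Its 2 probes lay near background, well above it on 2 and 2 of 3 control arrays and on 2 and 1 of 3 overexpression arrays, and the overexpression arrays differed from the control arrays by 1.14 and 0.26 on the log2 scale. A coding-sequence vector need not be read by these probes. Of 12 microglial and macrophage markers, 10 were tested and all 10 were well above background on every array, whereas Cx3cr1 and P2ry12 were not tested. Of the 10, 6 rose, a number that became 0 after quantile normalization, and Tmem119, a marker of resident microglia, fell by 2.68. Of 4 neuronal markers 2 rose and 1 fell, and Snap25 among them was bright, at 4.65 on the control arrays. Of 3 astrocyte markers 2 rose, of 4 oligodendrocyte markers 1 rose, and of 2 endothelial markers 1 rose and 1 fell. Beside these counts, 36.9% of all genes tested rose and 19.6% fell. After quantile normalization the astrocyte, oligodendrocyte and endothelial calls were kept, as were the neuronal fall and 1 of the 2 neuronal rises. The part of any of these markers in the values of the Zfp genes was not tested. Arrays with overexpression were the dimmer ones, with intensities at the 75th percentile of 1157, 856 and 1268, compared with 1617, 1627 and 1893 for those without. Levels below are log2 intensities minus that percentile of the array, so 0 is the level of a spot at that percentile, and a positive log2 fold change means a higher level with overexpression. Over all genes tested the median change was 0.23 on this scale and 0.03 after quantile normalization, and the part that the dimmer overexpression arrays play in any result was not tested.

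More Zfp genes were lower than higher in the arrays labelled PGC-1α overexpression, whereas genes at large did not lean that way. Of the 144 Zfp genes, 51 (35.4%) fell and 22 (15.3%) rose at a Benjamini-Hochberg adjusted p below 0.05 in limma, and 71 did not pass. Among all genes tested, 19.6% fell and 36.9% rose. After quantile normalization 54 of the 144 fell and 13 rose, beside 20.9% and 21.7% of all genes, and 50 of the lower and 13 of the higher Zfp genes kept their call. Counting changes of 1 or more on the log2 scale, 33 Zfp genes fell and 2 rose, whereas 7.53% of all genes fell and 6.72% rose that far. The groups did not overlap in 53 lower and 23 higher of the 141 Zfp genes with a value on every array, beside 22.9% and 42.6% of all such genes.

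The median log2 fold change of the Zfp genes was -0.26, or -0.49 relative to the median of all genes, with quartiles at -0.95 and 0.22. After quantile normalization it was -0.38, or -0.41 relative to all genes. Set against the control mean and the median of all genes on the same array, the Zfp median stood at -0.43, -0.85 and -0.28 with overexpression and at -0.15, 0.07 and 0.09 without it. All 3 overexpression arrays thus lay below all 3 control arrays, with overexpression array 2, the dimmest, farthest down. The 51 lower genes were lower on both slides and the 22 higher genes higher on both, with medians of -1.30 and -1.11 for the lower genes on slide 1 and slide 2. These genes were called from the same arrays, so agreement between the slides is largely built in and is no separate check.

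**Figure D1:**
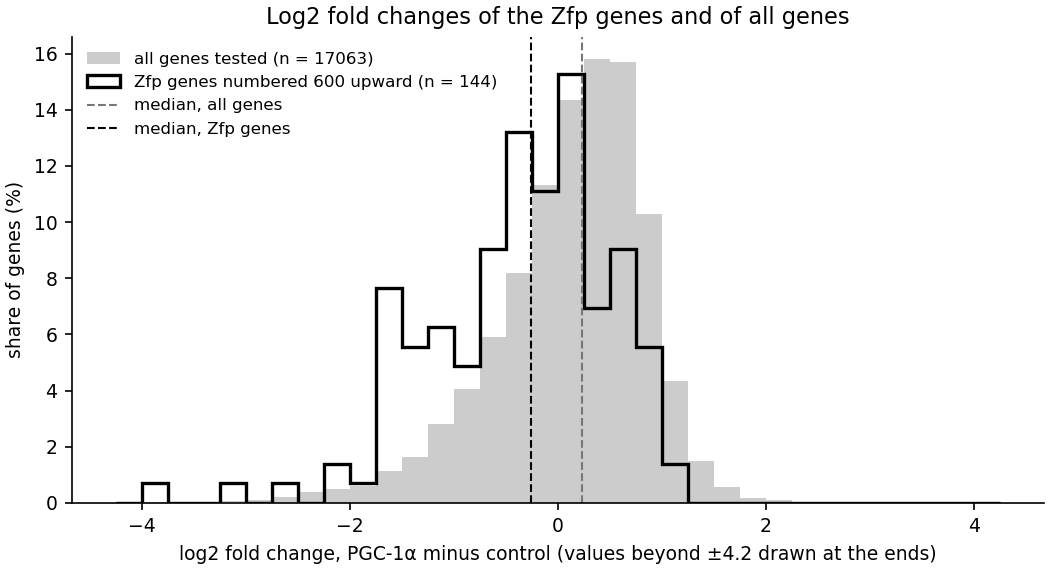
Histogram of log2 fold changes (x axis, overexpression minus control) as a share of genes (y axis, in %), for all 17063 genes tested in grey and the 144 Zfp genes as a black outline, with dashed lines at the medians of 0.23 and -0.26. The Zfp outline has a shoulder between -1 and -2 and a tail that reaches -3.87, and ends on the right at 1.17.

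The falls lay among the dim Zfp genes, and falls were also fewer among bright genes at large. None of the 38 Zfp genes with a mean level above the 75th percentile of the array fell and 10 rose, while 51 of the 106 below it (48.1%) fell and 12 rose. Of all genes, 11.2% fell and 36.1% rose above that percentile, and 25.1% fell and 37.4% rose below it. Each gene is read here from its brightest probe, so the split is one of these probes. Among the 10 that rose, Zfp655, Zfp672, Zfp764 and Zfp791 each had a dimmer probe that fell past the threshold. So did Zfp707, Zfp943 and Zfp950 among the bright Zfp genes that did not pass. With all genes cut into 5 equal bins of level, from the dimmest up, 12, 25, 13, 1 and 0 Zfp genes fell, or 48%, 53.2%, 40.6%, 5.26% and 0%, beside 16.3%, 26.2%, 32.6%, 20.2% and 2.72% of all genes. Their medians were -0.41, -0.75, -0.34, 0.13 and 0.21. The medians of all genes in the same bins were 0.56, 0.27, -0.13, 0.03 and 0.39. The level is a mean over both groups and so holds the fallen values too, and 10 of the 12 falls in the dimmest bin were of genes not well above background on all overexpression arrays. Among genes well above background on all 6 arrays, 2 of 13 Zfp genes fell in the dimmest bin (15.4%, all genes 11.7%) and 25 of 47 in the next (53.2%, all genes 25.9%). After quantile normalization the bright Zfp genes above the percentile numbered 4 higher and 1 lower. Across the 144 Zfp genes, log2 fold change and mean level had a Pearson's r of 0.44 and a Spearman's rho of 0.43, against 0.01 and -0.06 across all genes; genes are not independent replicates, and the points share the same 6 arrays and the same scaling.

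**Figure D2:**
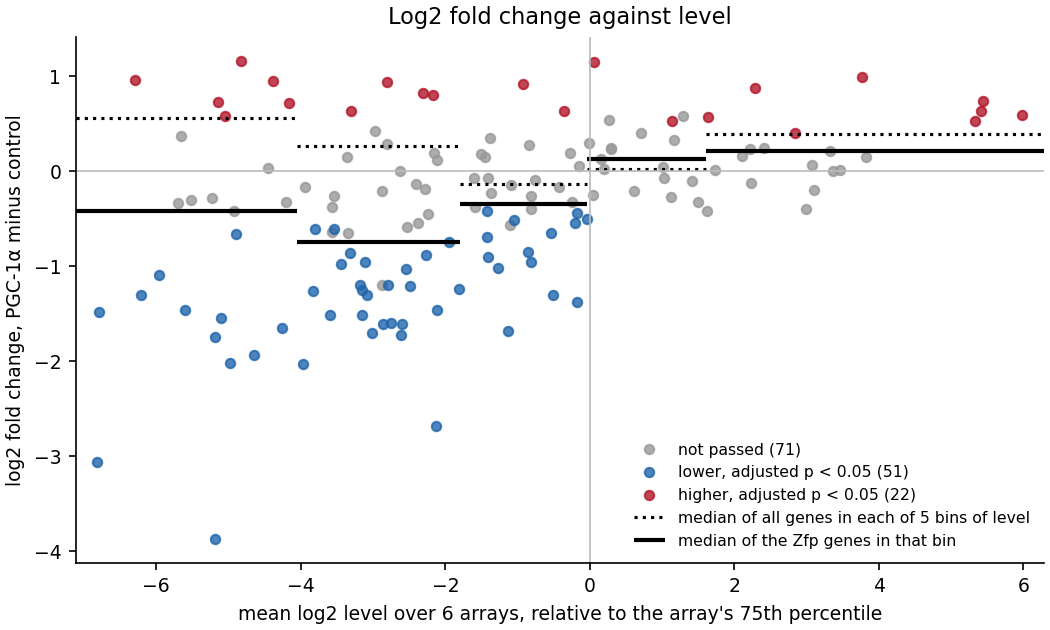
Log2 fold change (y axis, overexpression minus control) against mean log2 level over 6 arrays (x axis, relative to the array's 75th percentile) for the 144 Zfp genes, blue for the 51 lower, red for the 22 higher and grey for the 71 not passed. Solid bars are the Zfp medians in each of the 5 bins of level and dotted bars those of all genes, and the blue points lie to the left of 0 on the x axis.

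Among Zfp genes that were measured in both groups, Zfp719 on chromosome 7 fell most. Its level was -2.94, -3.63 and -3.19 without and -6.52, -8.03 and -6.82 with overexpression. The groups were far apart, and 1 of 3 overexpression arrays was well above background. The log2 fold change was -3.87 ± 0.37 (SE, limma adjusted p = 0.00022), a value set against arrays at or near background. A second probe of the gene also fell, but was well above background on 0 overexpression arrays. Zfp747, also on chromosome 7, stood at -0.66, -0.83 and -0.88 without and at -3.55, -3.25 and -3.60 with overexpression. All 6 arrays were well above background here, and the fall of 2.68 ± 0.14 (SE, limma adjusted p = 2.56e-05) was many times the spread within either group.

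The next falls were about 4-fold or somewhat less. Zfp830, which is linked to early embryonic survival and splicing, was at -3.03, -3.01 and -2.83 without and -4.95, -5.26 and -4.75 with overexpression, a difference of -2.03. Zfp953 gave -4.44, -3.81 and -3.66 against -5.65, -6.46 and -5.86, a difference of -2.02, and Zfp790 gave -3.64, -3.44 and -3.96 against -5.14, -6.25 and -5.44, a difference of -1.93. In both, 2 of 3 overexpression arrays were well above background. Zfp661 was at -1.79, -1.77 and -1.71 without and -3.42, -3.85 and -3.16 with overexpression, a difference of -1.72, and Zfp770 differed by -1.70. In each of these 5 genes every overexpression array lay below every control array, which was a condition for the list of largest falls. Zfp677 differed by -1.75, but its arrays scattered from -5.24 to -3.68 without and from -7.40 to -5.32 with overexpression, and its adjusted p of 0.0341 rose to 0.165 in the alternative that weakened it most.

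Some falls could be given as lower limits because no overexpression array was well above background. Zfp799 was at -4.99, -5.30 and -5.56 on the control arrays, and its signal was at least 2.95-fold lower with overexpression. The limit was at least 2.20-fold for Zfp712 and at least 1.52-fold for Zfp750, a regulator of epidermal differentiation. With normexp and the 75th percentile none of these 3 calls held, and the log2 fold changes were -0.15 for Zfp799, 0.19 for Zfp712 and 0.25 for Zfp750. These limits set the control mean against the higher of the probe's own signal and the lowest signal well above background on each dim array.

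**Figure D3:**
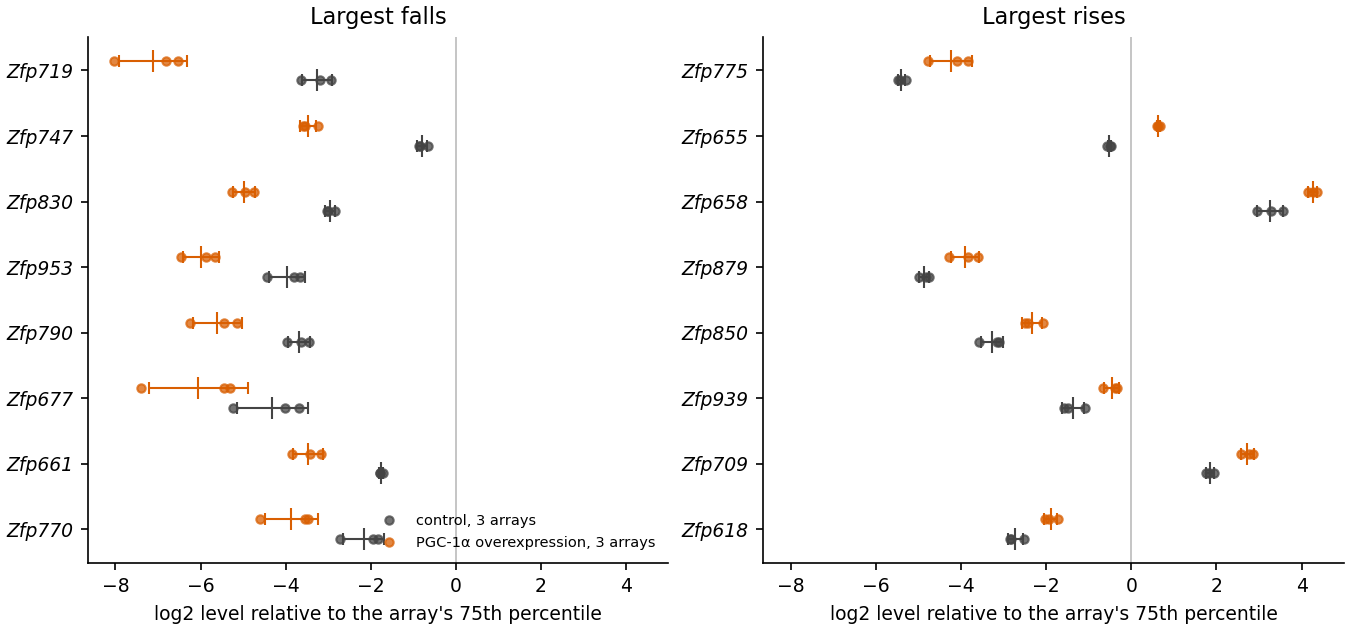
Log2 levels (x axis, relative to the array's 75th percentile) of the 8 Zfp genes with the largest falls and the 8 with the largest rises (y axis), with 1 point per array, 3 control arrays in grey and 3 overexpression arrays in orange, a tick at the mean and bars of 1 SD. Genes were taken only where the groups do not overlap, and the falls are longer than the rises, with Zfp719 farthest at -3.87.

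The largest rises were near 2-fold. Zfp775 on chromosome 6 was at -5.31, -5.43 and -5.48 without and at -4.10, -3.83 and -4.78 with overexpression, a dim gene that rose by 1.17 ± 0.23 (SE, limma adjusted p = 0.00423). Zfp658 was bright, at 2.95, 3.29 and 3.56 without and 4.15, 4.27 and 4.37 with overexpression, and rose by 0.99. Quantile normalization brought this to 0.51. Zfp879, Zfp939, Zfp709 and Zfp618 rose by 0.95, 0.92, 0.88 and 0.83, with groups that did not overlap, as the choice required. The dimmer probe of Zfp709 gave -0.24. Zfp618 encodes a protein that binds hydroxymethylated DNA, and it lay at -2.82, -2.52 and -2.84 without and -1.94, -1.73 and -2.02 with overexpression. Zfp872 had no control array well above background, and its signal was 1.94-fold higher with overexpression on this scale. This is the estimate itself and not a lower limit, since the control signals were not below the lowest signal well above background. Over the alternatives the log2 fold change ran from 0.11 with normexp and quantile normalization to 1.22 without control array 3. After quantile normalization the log2 fold change was 0.69 and did not pass (limma adjusted p = 0.0674).

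Zfp655 and Zfp850 were also among the 8 largest rises, but their probes disagreed. Zfp655 encodes VIK, a partner of the signalling protein Vav1. Its brightest probe rose from -0.49, -0.56 and -0.50 to 0.60, 0.63 and 0.68, a log2 fold change of 1.15, while a second probe fell from 0.12, 0.20 and 0.46 to -0.95, -1.01 and -0.76, a log2 fold change of -1.16, and the last gave 0.25 and did not pass. Both calls rest on arrays that hardly scatter, so the probes of this gene moved apart by more than the spread between arrays. For Zfp850 the brightest probe gave 0.94 and the others -0.79 and -0.92, of which the last passed, and without overexpression array 2 another probe became the brightest and the value was -0.53.

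Several Zfp genes had more than 1 probe. Of 50 Zfp genes with several tested probes, 31 (62%) had probes of 1 sign, 16 (32%) had every probe lower past the threshold and 0 had every probe higher. Of all 5933 such genes the shares were 68%, 11.4% and 12.5%. In 5 genes, Zfp655, Zfp672, Zfp764, Zfp791 and Zfp850, probes passed in both directions (10% of the 50, beside 5.78% of all such genes), and in each of them the probe that rose was the brightest by its mean over the 6 arrays. Zfp791 gave 0.53 by a probe at 5.03, 5.05 and 5.11 on the control arrays and -1.50 by one at -3.79, -3.70 and -3.76. After quantile normalization the bright probe gave -0.09. Zfp672 gave 0.53 by its brighter probe and -1.05 by its dimmer one. In 35 of the 50 genes (70%) the brightest probe had a higher log2 fold change than the mean of the others, beside 62.4% of all genes with several probes. The median difference was 0.28 for the Zfp genes and 0.11 for all such genes, so the choice of probe moved the Zfp values more. Counted by probe, 85 of 206 Zfp probes fell and 23 rose, beside 21.3% and 31.4% of all 24559 probes.

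Zfp764 is the neighbour and close copy of Zfp747, and shows the same split. A probe at 5.01, 5.06 and 5.14 on the control arrays rose to 5.61, 5.90 and 5.92, a log2 fold change of 0.74 that became 0.10 after quantile normalization. The other probe was at -0.18, -0.65 and -0.46 without and -3.49, -3.49 and -3.26 with overexpression, a log2 fold change of -2.99 that nearly equals the levels and the fall of Zfp747. Signal of 1 gene read by a probe of the other cannot be told apart from a fall in both. The promoters of the pair matched at 265 of 307 aligned positions (86.3%), and are printed from RefSeq on GRCm38.p6, from 250 bases before to 50 after the start of the gene, with unmatched bases in capitals. Zfp747 lies at chr7:127376001-127376300, minus strand, and Zfp764 at chr7:127406773-127407072, minus strand.
Zfp747: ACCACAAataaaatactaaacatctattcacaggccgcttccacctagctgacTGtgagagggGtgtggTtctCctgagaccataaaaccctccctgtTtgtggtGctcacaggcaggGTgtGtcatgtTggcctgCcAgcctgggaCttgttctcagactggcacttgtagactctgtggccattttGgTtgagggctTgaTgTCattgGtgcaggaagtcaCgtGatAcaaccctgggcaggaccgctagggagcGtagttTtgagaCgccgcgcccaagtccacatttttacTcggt
Zfp764: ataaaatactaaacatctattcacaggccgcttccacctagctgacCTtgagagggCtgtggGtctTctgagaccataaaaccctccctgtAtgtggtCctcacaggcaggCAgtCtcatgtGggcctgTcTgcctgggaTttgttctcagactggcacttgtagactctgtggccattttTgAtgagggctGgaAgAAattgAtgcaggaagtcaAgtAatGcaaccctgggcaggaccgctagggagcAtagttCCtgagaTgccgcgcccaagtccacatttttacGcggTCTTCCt

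Of the 173 Zfp genes, 149 had a promoter in the RefSeq table, 124 of them tested. These windows were searched on both strands for short cores of factors that PGC-1α is known to work with, GCGCATGCG for NRF1, AAGGTCA for ERR, CCGGAAG for GABP and AAGATGGC for YY1. The NRF1 core was found in 6 of 124 tested Zfp promoters (4.84%) and in 3.19% of the promoters of all genes tested, and the ERR site in 3.23% against 4.47%. The GABP core was in 16.9% against 15.9%, and the YY1 core in 2.42% against 4.32%. By call, 4 of 44 lower, 1 of 18 higher and 1 of 62 other Zfp genes held the NRF1 core, and 0, 2 and 2 held the ERR site. A match is letters in a window and not a bound site.

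Zfp719, the largest fall, and Zfp653, which fell by 1.01, are among the lower genes with the NRF1 core. Zfp655 has the GABP core near its start, and Zfp653 holds it too, on the other strand, as CTTCCGG. They are shown in the same windows with matches in capitals, the run of 10 letters in Zfp719 and Zfp653 being the core read on both strands with an overlap. Zfp719 lies at chr7:43579336-43579635, plus strand, Zfp653 at chr9:22071327-22071626, minus strand, and Zfp655 at chr5:145231492-145231791, plus strand.
Zfp719: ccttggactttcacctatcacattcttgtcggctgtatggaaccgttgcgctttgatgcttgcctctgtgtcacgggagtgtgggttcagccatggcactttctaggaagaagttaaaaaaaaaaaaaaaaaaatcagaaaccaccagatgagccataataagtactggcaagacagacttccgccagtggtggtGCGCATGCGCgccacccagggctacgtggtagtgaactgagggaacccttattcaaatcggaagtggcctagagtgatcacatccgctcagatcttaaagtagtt
Zfp653: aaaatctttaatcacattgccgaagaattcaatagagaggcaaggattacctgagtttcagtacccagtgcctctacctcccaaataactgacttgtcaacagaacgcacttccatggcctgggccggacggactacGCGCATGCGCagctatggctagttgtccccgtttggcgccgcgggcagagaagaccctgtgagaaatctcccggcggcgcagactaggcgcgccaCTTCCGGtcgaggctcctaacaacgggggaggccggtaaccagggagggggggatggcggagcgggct
Zfp655: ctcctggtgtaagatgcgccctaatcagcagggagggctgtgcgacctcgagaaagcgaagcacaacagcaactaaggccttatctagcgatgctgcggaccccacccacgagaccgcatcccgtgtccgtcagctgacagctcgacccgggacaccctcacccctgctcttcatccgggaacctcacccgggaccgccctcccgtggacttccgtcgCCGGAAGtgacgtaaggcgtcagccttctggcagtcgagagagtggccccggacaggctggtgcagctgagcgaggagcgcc

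Zfp746 encodes PARIS, the parkin substrate that represses the Ppargc1a gene, which makes it the Zfp gene closest to PGC-1α itself. Its level was -0.01, -0.27 and -0.37 without and -0.996, -0.65 and -0.93 with overexpression. The groups did not overlap, and the fall of 0.65 ± 0.15 (SE, limma adjusted p = 0.00851) passed the threshold in every alternative run, the highest adjusted p being 0.0378.

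Zfp genes that silence retroviruses and transposable elements did not move as one. Zfp809 recruits Trim28 to the primer binding site of murine leukaemia viruses, and it was at -2.15, -1.70 and -1.55 without and -3.19, -3.72 and -3.31 with overexpression. The fall was 1.61 ± 0.20 (SE, limma adjusted p = 0.000692), and its second probe gave -1.10. Zfp961, which also reads retroviral primer binding sites, was at -0.45, -0.17 and -0.41 without and -1.34, -1.55 and -1.01 with overexpression, a difference of -0.96 that passed, with all 3 of its probes at -0.96 or below. Zfp932, a repressor of endogenous retroviruses, gave -0.40 with overlapping arrays and did not pass, although it passed after quantile normalization at -0.76 and its dimmer probe gave 0.45. Zfp819, also tied to retroelements, gave 0.20 and did not pass. Zfp638 encodes NP220, which silences unintegrated retroviral DNA, and was named after its values were seen: it gave -2.28, -0.92 and -0.94 without and -2.71, -3.50 and -2.30 with overexpression, and the difference of -1.46 passed at an adjusted p of 0.0179.

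Zfp genes with known parts in development and chromatin went both ways. Zfp608 fell by 0.84, while its close relative Zfp609 gave 0.15 and did not pass. Whether these 2 genes differ was not tested. Zfp704 fell by 1.30, and Zfp703 gave -0.40 and did not pass. Zfp827, which recruits chromatin remodelling proteins to telomeres, was at -1.85, -1.94 and -2.05 without and -3.65, -3.43 and -3.56 with overexpression by its brightest probe, a log2 fold change of -1.60. Its other probes gave 0.49 and -0.10 and did not pass, and without control array 3 another probe became the brightest and the value turned to 0.31. Zfp711, a gene of X-linked intellectual disability, rose by 0.73 from -5.64, -5.56 and -5.33 to -4.99, -4.64 and -4.71, at the low end of the range of levels. Zfp706 rose by 0.40, which became 0.03 after quantile normalization. Zfp740 and Zfp639 fell by 0.42 and 0.51. Zfp644, a partner of the methyltransferases Ehmt1 and Ehmt2, had a value on 2 overexpression arrays and gave -0.57 without passing. Zfp687 at 0.33, Zfp652 at 0.12, Zfp668 at -0.16 and Zfp692 at -0.27 did not pass either.

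Zfp genes that start less than 1 Mb from the next one were taken as a cluster, and 11 clusters held 4 or more tested genes, 71 genes in all. In the clusters 26 genes fell and 8 rose, and outside them 25 of 73 fell and 14 rose, with medians of -0.20 and -0.28. The cluster medians were far from equal. The lowest was that of the cluster from Zfp653 to Zfp810 on chromosome 9, at -1.23, in which Zfp653, Zfp809 and Zfp810 fell and Zfp872 rose. On chromosome 17 the 5 genes from Zfp871 to Zfp763 had a median of -0.95, with Zfp799, Zfp952 and Zfp763 lower, Zfp870 at -0.37 and Zfp871 at 0.18. The 4 genes from Zfp712 to Zfp953 on chromosome 13 had a median of -0.81, with Zfp712 and Zfp953 lower and Zfp708 highest at -0.14.

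Chromosome 7 held 34 tested Zfp genes, of which 15 fell and 6 rose, and 3 of the clusters, of 9, 8 and 5 tested genes, lie on it. From Zfp771 to Zfp646, the cluster of Zfp747 and Zfp764, 6 of 9 fell and the median was -0.54. From Zfp788 to Zfp819, the cluster of Zfp719, 3 of 8 fell, Zfp658 rose and the median was -0.40. From Zfp787 to Zfp772 the median was -0.23, from Zfp773 at -1.54 to Zfp787 at 0.64. On chromosome 8 the genes from Zfp930 to Zfp866 had a median of -0.32, from Zfp869 at -1.21 to Zfp930 at 0.02.

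The other 4 clusters had medians between -0.05 and 0.24, close to that of all genes or a little below it. In the cluster from Zfp990 to Zfp933 on chromosome 4, the median was 0.23, Zfp933 fell by 1.24, Zfp984 rose by 0.58, a call lost in 12 of 19 alternatives, and 7 of 9 genes did not pass. In that from Zfp677 to Zfp946 on chromosome 17 it was -0.01, with 2 of 10 lower and Zfp820 highest at 0.55. From Zfp831 to Zfp931 on chromosome 2 it was -0.05, Zfp971 being lowest at -0.45 and Zfp831 the 1 gene that rose, by 0.58, a call lost in 10 of 19 alternatives. The cluster from Zfp786 to Zfp775 on chromosome 6 was split, with Zfp786 and Zfp746 lower by 0.66 and 0.65 (Zfp786 at 0.03 with normexp and the 75th percentile), Zfp775 and Zfp783 higher by 1.17 and 0.73 and a median of 0.24.

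**Figure D4:**
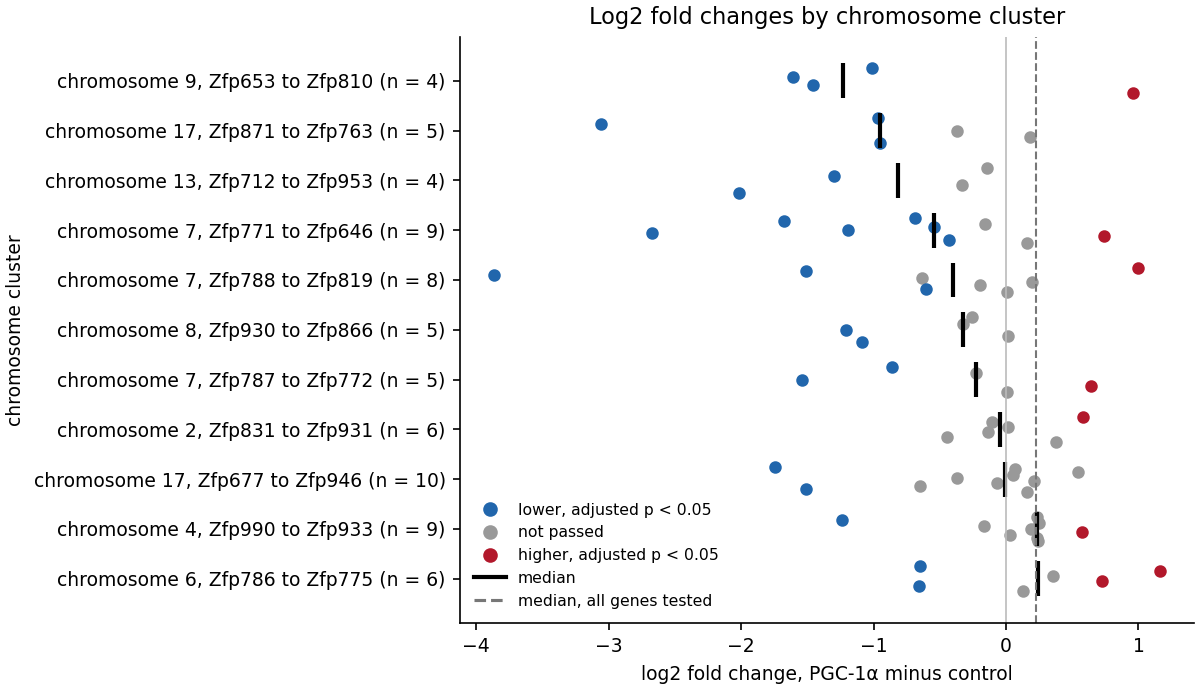
Log2 fold change (x axis, overexpression minus control) of each tested Zfp gene in the 11 chromosome clusters (y axis), blue for lower, red for higher and grey for not passed, with black bars at the cluster medians and a dashed line at the median of all genes. Medians run from -1.23 on chromosome 9 to 0.24 on chromosome 6, and most grey points sit in the clusters of chromosomes 2, 4 and 17.

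The clusters on chromosomes 2, 4 and 17 in which few genes passed did vary, but within the groups. Control array 1 was the lowest control and overexpression array 2 the lowest overexpression array for all 9 genes from Zfp990 to Zfp933 on chromosome 4 and all 10 from Zfp677 to Zfp946 on chromosome 17. The same held for 4 of 6 genes from Zfp831 to Zfp931 on chromosome 2 and 5 of 7 from Zfp788 to Zfp819 on chromosome 7. It held for 61 of 141 Zfp genes (43.3%) and for 14.3% of all 16297 genes with a value on every array, and for 0 of 9 genes from Zfp771 to Zfp646 and 0 of 6 from Zfp786 to Zfp775. The chromosome 4 median, with each gene set to its own mean over the arrays, was -0.72, 0.15 and 0.36 without and 0.23, -0.54 and 0.56 with overexpression. The arrays of a group were thus farther apart than the groups. On chromosome 9 it was 0.52, 0.67 and 0.47 against -0.55, -0.62 and -0.62, where the groups were apart and the arrays within them close.

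Zfp758, a bright gene of the chromosome 17 cluster, was at 2.41, 3.26 and 3.44 without and 3.25, 2.40 and 3.66 with overexpression, and Zfp985 on chromosome 4 was at -0.89, 0.36 and 1.06 without and 0.42, -0.80 and 1.00 with it. Their log2 fold changes of 0.06 and 0.03 did not pass. The median SD within groups was 0.58 on chromosome 17 and 0.55 on chromosome 4 in these clusters, 0.26 over the Zfp genes and 0.19 over all genes. The arrays that stood low, control 1 and overexpression 2, both lay on slide 1, as did control 2 and overexpression 1, which were not low. The cause was not tested.

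**Figure D5:**
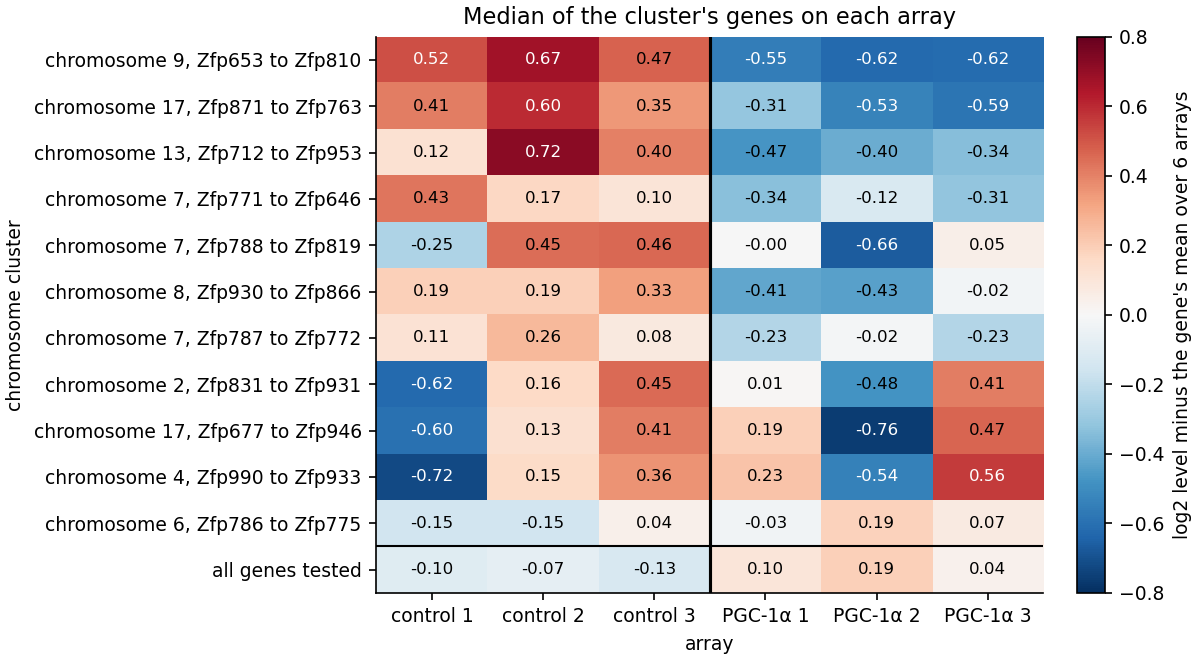
Median log2 level of each chromosome cluster (y axis) on each of 6 arrays (x axis), each gene set to its own mean over the arrays, from blue for low to red for high. The upper clusters are red on the 3 control arrays and blue on the 3 overexpression arrays, whereas those of chromosome 2, chromosome 4 and Zfp677 to Zfp946 are blue on control 1 and PGC-1α 2, down to -0.76.

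Some genes of these clusters have promoters that are close copies of each other, and their values may not be independent. Of 11026 pairs of promoters among 149 Zfp genes, 32 pairs were identical at 80% or more of the aligned positions, and in all 32 both genes lay on the same chromosome. The median identity was 74.4% within the chromosome 2 cluster, but 52.2% within that of chromosome 4 and 49.3% from Zfp677 to Zfp946 on chromosome 17, beside 49.7% between chromosomes, so most promoters in the latter clusters were no more alike than those of different chromosomes. Zfp967 and Zfp970 matched at 96.1%, Zfp758 and Zfp943 at 94.8%, and Zfp600 and Zfp979 at 94.8%. Their log2 fold changes were 0.01 and -0.14, 0.06 and 0.05, and 0.23 and 0.25, none of which passed. Probes could share signal between such copies, which was not tested.

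Genes of the machinery that KRAB zinc finger proteins act through were read from the same fit. Of 45 tested, 6 (13.3%) fell and 11 (24.4%) rose, both shares below the 19.6% and 36.9% of all genes, and after quantile normalization 6 fell and 1 rose. Trim28 itself gave 0.09 and did not pass. Setdb1, the methyltransferase that Trim28 recruits, fell by 1.03, and its partner Atf7ip fell by 0.57. Smarcad1, a chromatin remodeller, fell by 2.11 with 1 of 3 overexpression arrays well above background. The SUMO ligase Pias1 fell by 0.87, Resf1 by 0.88 and the DNA methyltransferase Dnmt3b by 0.52. The calls of Atf7ip and Resf1 were each lost in 7 of 19 alternatives. Dnmt3a, the other such enzyme, rose by 0.66 and kept its call after quantile normalization, but its dimmest probe gave -0.45. The other 10 genes that rose, Cbx1, Cbx3, Mbd3, Rbbp7, Suv39h2, Sumo2, Sumo3, Ppp1ca, H3f3a and H3f3b, rose by 0.30 to 0.66 and did not pass after it, with values between -0.23 and 0.42.

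Other zinc finger families were also lower more often than higher. Zfp genes numbered below 600 gave 83 lower (45.9%) and 30 higher of 181, with a median of -0.37. Zscan and Zkscan genes gave 11 lower (61.1%) and 1 higher of 18, with a median of -0.67. Zbtb genes gave 17 lower (50%) and 5 higher of 34, with a median of -0.39. Each of these families thus had a larger lower share and a lower median than the Zfp genes numbered 600 upward (35.4% and -0.26). Within the range, 16 of 40 genes fell among those numbered 600 to 699, 15 of 35 among those numbered 700 to 799, 10 of 24 among those numbered 800 to 899 and 10 of 45 among those numbered 900 to 999, and 8, 8, 4 and 2 rose. The median of the last block, -0.11, was nearest to 0, and many of these genes are in the clusters of chromosomes 2, 4 and 17. No test of these differences was made.

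The 11 Zfp genes with a probe that was not tested were Zfp612, Zfp641, Zfp735, Zfp748, Zfp760, Zfp811, Zfp882, Zfp941, Zfp945, Zfp963 and Zfp987. Of them, 9 were well above background on 0 arrays, Zfp941 on 1 overexpression array and Zfp987 on 2 arrays of each group.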

How the data were processed

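Total RNA of 6 BV2 samples was hybridized to 1-colour Agilent arrays, 3 per group. Per the file headers, the authors' Agilent Feature Extraction 11.5.1.1 wrote the deposited intensity of each spot after background subtraction, with no normalization between arrays. The authors also deposited log2 values of part of the probes, normalized in GeneSpring by a procedure that is not given in the sources used here. Cy3 is the dye named in the labels and Cy5 that of the methods; values of the green channel were used.

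The log2 intensity minus the 75th percentile of the array was used, outlier spots were left out, and accessions were matched to RefSeq mouse genes (33767 of 56605 probes). Testing required values from at least 2 arrays of each group and a signal well above background throughout the 3 arrays of at least 1 group. Each gene was read from its brightest such probe. Groups, replicate numbers and slides came from the labels. Differences between groups came from limma 3.58.1 (lmFit, eBayes, two-sided) run in R 4.3.3; p-values of 17063 genes were adjusted by Benjamini-Hochberg, and calls were made below 0.05. An exact permutation of 3 against 3 arrays cannot go below p = 0.1, and precision is limited by having 6 arrays. The fit was tested on simulated data with noise drawn independently for each gene and array, which does not hold variation shared between genes on an array. The array design predates GRCm38.p6, the assembly of the RefSeq tables, so chromosome and gene order were taken from it and coordinates are printed for promoters alone, which were read from the table. Promoters were aligned globally. Tables and plots were made with Python 3.11.15, pandas 2.3.3 and matplotlib 3.10.9.

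The Zfp genes, lists and motifs were chosen with earlier results of these data known. Named were genes with textbook roles, the 8 largest rises and falls whose groups did not overlap and with 1 array or more of each group well above background, the extremes of each cluster, genes with opposed probes and machinery genes past the threshold. Alternatives were quantile normalization, normexp with an offset of 50, median scaling, other filters and probes, slide or replicate as a block, variance models, the authors' log2 values, a fold threshold and each array left out. Protein sequences were not analysed here, and 1 machinery gene is not reported here.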

Additional observations from a re-analysis of the deposited data

How the results depend on the processing

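The share of Zfp genes that were lower exceeded that of all genes in each alternative run: between 42 and 62 were lower and between 11 and 25 higher, apart from a threshold of 1 on the log2 scale, which left 33 and 2. Higher genes numbered 13 after quantile normalization and with the authors' log2 values, 11 with normexp and quantile normalization, and 12 when the dimmest probe stood for a gene, an alternative chosen after seeing the data. The median relative to all genes lay between -0.60 and -0.25. Of the calls, 32 lower genes and 4 higher ones (Zfp618, Zfp775, Zfp879 and Zfp939) held in every alternative, of 19, in which they were tested. Of the lower ones, Zfp719, Zfp953 and Zfp790 were not tested in the alternative limited to genes well above background on all 6 arrays. With the replicate block 54 were lower and 25 higher, and with the slide as a block 56 and 25. Deviations of same-numbered arrays from their group means correlated at -0.16, 0.07 and 0.60. Control array 1 with overexpression array 2 gave 0.50, and control array 2 with overexpression array 1 gave 0.23. The replicate block paired arrays by number, and other pairs were not tried.

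Cluster medians relative to all genes moved by more than the spread of the overexpression arrays in these cases. For Zfp653 to Zfp810 on chromosome 9 (-1.46) they were -1.58 with no filter, -0.70 after normexp with 75th-percentile scaling, -0.69 after normexp followed by quantile normalization, -1.37 with quantile normalization, -1.21 with the authors' values and -1.26 with a gap of 2 Mb. For Zfp871 to Zfp763 on chromosome 17 (-1.18) these were -1.30, -0.41 and -0.65, then -0.97 with the authors' values, -1.06 with the dimmest probe and -0.87 with genes well above background on all 6 arrays. For Zfp712 to Zfp953 on chromosome 13 (-1.04) they were -1.16 with no filter, -0.19 and -0.26 with normexp, -0.36 with all 6 arrays and -1.20 with array weights. For Zfp771 to Zfp646 on chromosome 7 (-0.77) they were -0.89 with no filter, -0.57 with quantile normalization, -0.55 with normexp and quantile normalization, -0.52 with the authors' values and -0.92 with the dimmest probe. For Zfp787 to Zfp772 on chromosome 7 (-0.45) they were -0.59 with array weights, -1.03 with the dimmest probe, -1.04 with the mean of probes, -0.24 and -0.23 with quantile normalization without and with normexp, and -0.20 with the authors' values. For Zfp786 to Zfp775 on chromosome 6 (0.01) they were 0.22 with quantile normalization and 0.20 with the authors' values. With single arrays omitted, the clusters of chromosomes 13, 17 (Zfp871 to Zfp763) and 7 (Zfp771 to Zfp646) ran from -1.19 to -0.90, -1.22 to -1.07 and -0.82 to -0.69.

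Of the named genes, the following turned direction. With the dimmest probe Zfp764 gave -2.99, Zfp791 -1.50, Zfp672 -1.05, Zfp850 -0.92, Zfp709 -0.24, Zfp687 -0.23, Zfp871 -0.11, Zfp932 0.45, Dnmt3a -0.45 and Suv39h2 -0.86. With the mean of probes Zfp764 gave -1.12, Zfp791 -0.48, Zfp672 -0.26, Zfp850 -0.26, Zfp932 0.024 and Suv39h2 -0.16. With quantile normalization Zfp791 gave -0.087, Zfp930 -0.43, Rbbp7 -0.23, Suv39h2 -0.10 and Ppp1ca -0.028. With normexp and quantile normalization Zfp791 gave -0.060, Zfp930 -0.46, Zfp706 -0.0085, Cbx3 -0.027, Rbbp7 -0.21, Suv39h2 -0.084 and H3f3b -0.028. With the authors' values Zfp644 gave 0.77, Zfp791 -0.13, Zfp930 -0.45, Cbx1 -0.0078, Cbx3 -0.017, Rbbp7 -0.26, Suv39h2 -0.15 and Ppp1ca -0.063. With normexp and the 75th percentile Zfp750 gave 0.25, Zfp786 0.033 and Zfp930 -0.047, and with median scaling Zfp930 gave -0.093. With single arrays left out Zfp827 ran from -1.65 to 0.31, Zfp850 from -0.53 to 1.03, Zfp708 from -0.40 to 0.067 and Zfp930 from -0.19 to 0.20. Where probes differ, the construction of the alternative is the reason; otherwise the cause was not tested. Signal near background limits the dimmest genes, Zfp750 and Zfp799 among them.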
